A study of Mus musculus with 6 samples.

Results

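The genes described here are 8 genes of antigen presentation by major histocompatibility complex (MHC) class I: B2m, H2-K1, H2-D1, Tap1, Tap2, Tapbp, Nlrc5 and Erap1. They were found as the probe sets of the deposited table whose platform gene symbol is, or includes, 1 of these names, which found all 8 among the 21334 genes named in the annotation, on 28 of its 22961 probe sets with a gene symbol (34760 in all). B2m, Tap1, Tap2 and Erap1 have 1 probe set each, Tapbp has 1 of its own and Nlrc5 has 19. The other 4 probe sets carry several symbols: 2 name H2-K1 and H2-D1 together with LOC547349, and 2 name Rps3a1, a ribosomal protein gene, with Tapbp. No probe set is annotated to H2-K1 or H2-D1 alone.

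RNA came from male mouse embryonic stem (ES) cells of 129P2/OlaHsd background, cloned from 46C cells, which carry a knock-in of GFP at Sox1. Both groups were stable transfectants, grown with 10% serum and selected in puromycin at 1 µg/ml. 3 samples carried a control vector and 3 a vector for FLAG-tagged mouse CTCFL, a germ cell paralog of the insulator protein CTCF. Each was read on a GeneChip Mouse Gene 1.0 ST array, and the labels do not say how many clones a group holds, so each p-value speaks of the spread among these arrays alone. Ctcfl, read as the check of the labels, went from 7.81 ± 0.10 to 11.26 ± 0.06 (SD, n = 3 per group).

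MHC class I molecules show short peptides from inside the cell to cytotoxic T cells and natural killer cells. A heavy chain, such as H2-K1 or H2-D1, folds with β2-microglobulin, the product of B2m, and is filled in the endoplasmic reticulum (ER). Peptides are cut by the proteasome, carried into the ER by the transporter of Tap1 and Tap2, trimmed by the aminopeptidase Erap1 and loaded with the help of tapasin, the product of Tapbp. Nlrc5 is a transactivator of these genes that works at a conserved promoter module, and ES cells are known for low surface class I.

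The promoter module is shown first, since B2m and the heavy chain genes share it and differed in their change. The letters are the 250 bases before the most upstream RefSeq start of each gene in build GRCm38.p6, of which 6 of 8 members had an entry. B2m lies on the plus strand (chr2:122147437-122147686), H2-K1 on the minus strand (chr17:34000348-34000597), and H2-D1 (chr17:35262844-35263093) and Tapbp (chr17:33919228-33919477) on the plus strand, all read 5′ to 3′ along the gene. Capitals mark matches, on either strand, to 5 motifs: the interferon-stimulated response element core (GAAA, any 2 bases, GAAA), the κB site of enhancer A as GGGNNTTCC, the CCAAT box CCAAT, the CRE core TGACG of the X2 box, and the CTCF core (CCA, any 2 bases, AG, any 2 bases, GGC).
B2m: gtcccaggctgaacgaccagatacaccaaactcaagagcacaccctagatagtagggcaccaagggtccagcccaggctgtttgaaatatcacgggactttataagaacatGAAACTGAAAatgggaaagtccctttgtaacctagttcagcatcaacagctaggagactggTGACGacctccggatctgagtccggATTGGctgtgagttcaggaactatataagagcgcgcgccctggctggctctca
H2-K1: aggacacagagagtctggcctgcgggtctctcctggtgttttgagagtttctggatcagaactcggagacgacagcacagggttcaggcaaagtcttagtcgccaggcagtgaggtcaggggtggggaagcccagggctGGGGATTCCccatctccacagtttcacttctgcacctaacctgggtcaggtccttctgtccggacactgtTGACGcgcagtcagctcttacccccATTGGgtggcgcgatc
H2-D1: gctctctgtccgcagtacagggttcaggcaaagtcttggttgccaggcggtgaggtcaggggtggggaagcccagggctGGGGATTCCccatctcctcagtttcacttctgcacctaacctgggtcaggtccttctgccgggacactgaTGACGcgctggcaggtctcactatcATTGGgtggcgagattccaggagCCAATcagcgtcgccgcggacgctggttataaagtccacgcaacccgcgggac
Tapbp: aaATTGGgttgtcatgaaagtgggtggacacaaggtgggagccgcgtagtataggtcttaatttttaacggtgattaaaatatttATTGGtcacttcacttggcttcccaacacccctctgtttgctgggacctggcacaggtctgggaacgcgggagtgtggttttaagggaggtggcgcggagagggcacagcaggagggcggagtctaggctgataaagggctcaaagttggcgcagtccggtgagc

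As spelled here, the interferon-stimulated response element core was in B2m and in 2.98% of all 32851 windows of this length. The κB site as spelled was in H2-K1 and H2-D1 and in 4.98% of windows. Variants of these spellings were not searched, such as gtttcacttc in H2-K1 and H2-D1 and gggaaagtccc in B2m. A missing capital is thus no sign that a gene lacks either element. In B2m, H2-K1 and H2-D1 the first base of TGACG lay 25 bases before the first base of ATTGG, the CCAAT box on the other strand. This arrangement, looked for after it was seen in these 3 windows, was in 0.0548% of all windows, which belonged to 15 genes including H2-M3. Tapbp held CCAAT boxes alone, a motif of 33.8% of windows, while TGACG was in 17.8% and the CTCF core in 2.07%. Of the other members with an entry, not printed above, Tap1 held TGACG and CCAAT without that arrangement. Erap1 held none of the 5 motifs. The H2-K1 and H2-D1 windows, lined up on TGACG, were the same at 166 of 190 bases (87.4%). Matches describe these letters and are not shown to be bound here.

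B2m rose, the heavy chain probe sets did not pass the test, tapasin fell, and of the 2 transporter genes Tap2 rose a little and Tap1 did not pass. With limma at a Benjamini-Hochberg adjusted p under 0.05, 2 of the 28 member probe sets were higher in FLAG-CTCFL cells, where 11.8% of all probe sets with a symbol were, and 1 was lower, where 16.6% were. Without Nlrc5 it was 3 of 9, beside 28.4% called in either direction. These counts were near or below those over the table, so what follows concerns single genes and not the group. The median log2 fold change of the 28 was 0.04, against 0.0055 over all probe sets tested.

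The log2 signal of B2m, the invariant light chain of all class I molecules, was 9.64, 9.68 and 9.65 with the control vector, and with FLAG-CTCFL it was 10.22, 10.09 and 10.13. All FLAG-CTCFL arrays lay above all control arrays, as for 18.3% of probe sets over the table. The difference was 0.49 ± 0.05 on the log2 scale (SE, n = 3 per group), a 1.40-fold rise with limma adjusted p = 1.85e-05. It lay between 0.45 and 0.54 in every alternative run and passed the test in each.

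The probe set that names H2-D1 first read 10.02, 9.99 and 10.06 with the control vector against 10.08, 10.00 and 10.05 with FLAG-CTCFL. The groups overlap, with a log2 fold change of 0.02 and a 95% interval of -0.07 to 0.12 (limma adjusted p = 0.785). The probe set that names H2-K1 first read 9.16, 9.18 and 9.19 against 9.10, 9.22 and 9.25. Its log2 fold change was 0.02 as well, with an interval of -0.09 to 0.12 (adjusted p = 0.854). Both intervals end below the rise of B2m, so a change of that size was outside what these arrays allow for the heavy chain probe sets. Since each names both genes, a rise of one heavy chain and a fall of the other on the same probe set could not be told apart.

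The change of B2m exceeded that of the H2-D1-first probe set by 0.47 ± 0.03 (SE) and that of the H2-K1-first probe set by 0.47 ± 0.08. All 3 FLAG-CTCFL arrays had a larger difference between the probe sets than all 3 control arrays in both cases. The exact two-sided permutation test gave p = 0.10 for each, the smallest p that 3 against 3 arrays allow, and 0.10 after Benjamini-Hochberg adjustment over the 4 such differences computed. These pairs were chosen after the values were seen.

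**Figure D1:**
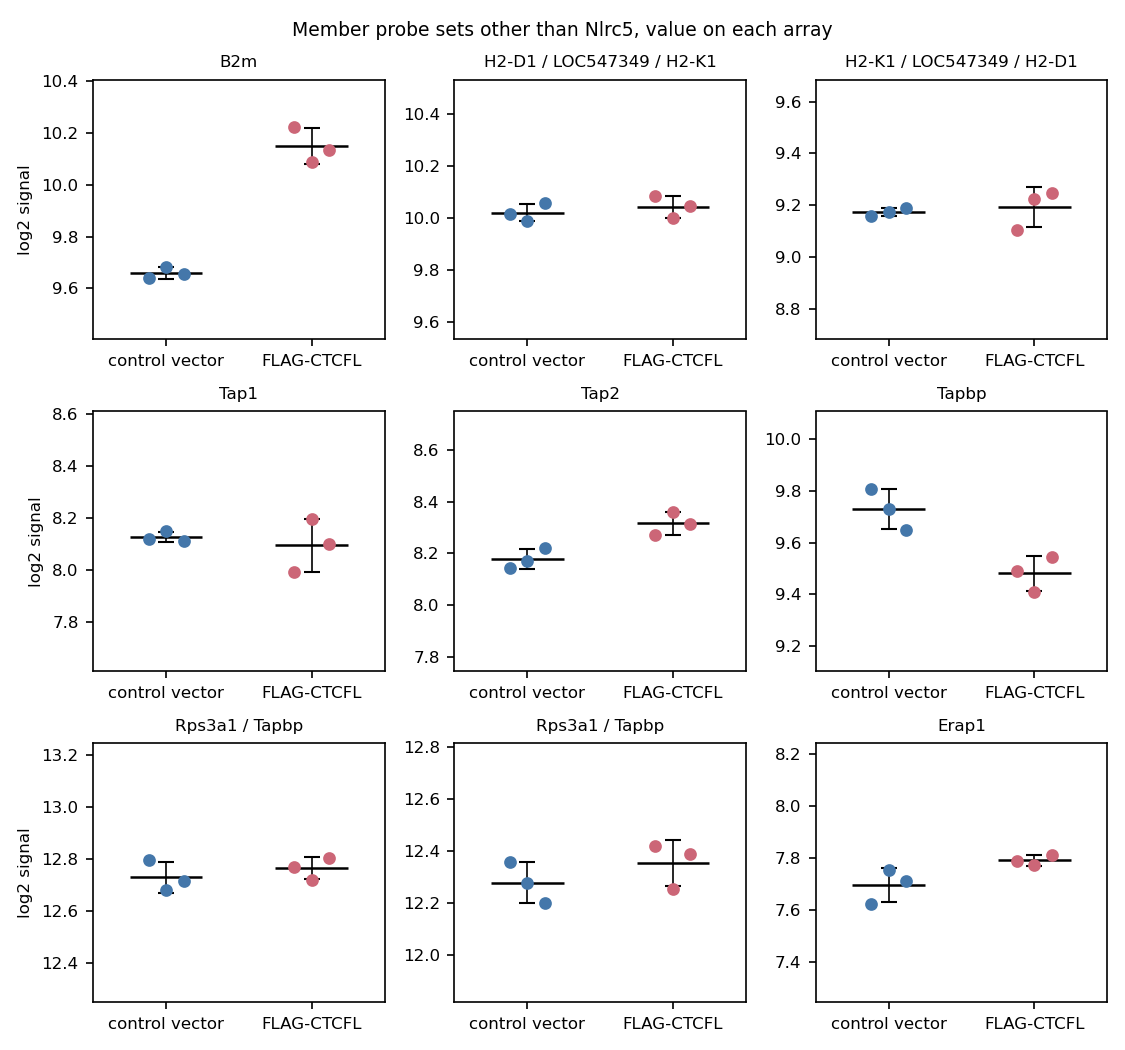
Log2 signal of the 9 member probe sets other than Nlrc5 on each of the 6 arrays (points), with the group mean (long bar) and SD (error bar, n = 3); every panel spans 1 log2 unit. The groups lie far apart for B2m (means of 9.66 and 10.15) and less so for Tapbp (9.73 and 9.48), where control replicate 3 (9.65) is close to FLAG-CTCFL replicate 3 (9.55). They overlap for both heavy chain probe sets and Tap1.

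Of the transporter genes, Tap1 read 8.12, 8.15 and 8.11 with the control vector against 7.99, 8.20 and 8.10 with FLAG-CTCFL. The FLAG-CTCFL arrays span the control arrays on both sides. Its log2 fold change was -0.03, with a 95% interval of -0.15 to 0.09 (limma adjusted p = 0.754). Tap2 read 8.14, 8.17 and 8.22 against 8.27, 8.36 and 8.32. These groups do not overlap, and Tap2 rose by 0.14 ± 0.04 (SE; 1.10-fold; limma adjusted p = 0.0377). The call was lost without any single control array (adjusted p = 0.137, 0.120 and 0.0535), without FLAG-CTCFL replicate 2 (0.0788) or 3 (0.0994), with the array medians subtracted (0.0735) and with the replicate block (0.0583). The change of Tap2 exceeded that of Tap1 by 0.17 ± 0.04 (exact permutation p = 0.10).

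Tapbp, whose product tapasin bridges the transporter and empty class I molecules, read 9.81, 9.73 and 9.65 with the control vector against 9.49, 9.41 and 9.55 with FLAG-CTCFL on its own probe set. Every FLAG-CTCFL array lay below every control array, as for 21.9% of probe sets over the table. It fell by 0.25 on the log2 scale (SE 0.05; 1.19-fold; limma adjusted p = 0.00505), a call lost without a variance shared between probe sets (adjusted p = 0.0676). The 2 probe sets shared with Rps3a1 had log2 fold changes of 0.03 and 0.08 (adjusted p = 0.678 and 0.405). They read between 12.20 and 12.81 on single arrays, and how much of this signal Tapbp gives was not tested. B2m and Tapbp moved apart by 0.74 ± 0.07 (exact permutation p = 0.10).

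Erap1, the ER aminopeptidase that trims peptides to length, read 7.62, 7.75 and 7.71 with the control vector against 7.79, 7.77 and 7.81 with FLAG-CTCFL. The groups do not overlap, as for 40.2% of all probe sets tested, but the difference of 0.09 ± 0.05 (SE) did not pass (limma adjusted p = 0.169). Its mean over all arrays, 7.74, was close to 7.63, the 95th percentile of the mean signal of 1358 olfactory and vomeronasal receptor probe sets, which serves as the background level here. On the log2 scale such a dim probe set understates a change. The 9 member probe sets other than Nlrc5 all lay above this level.

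Nlrc5, the transactivator of class I genes, was read by 19 probe sets, of which 14 lay above the background level. None of the 19 passed limma's test, and 2 had an unadjusted p under 0.05. Log2 fold changes ran from -0.02 to 0.13 with a median of 0.04, and the highest upper 95% limit was 0.24. 16 were above 0 and 3 below, but probe sets of 1 gene share its transcripts and are not independent. The probe set with the smallest p read 7.96, 7.89 and 7.93 with the control vector against 8.11, 7.97 and 8.10 with FLAG-CTCFL, with no overlap (0.13 ± 0.05, SE; limma adjusted p = 0.0827). It passed without FLAG-CTCFL replicate 2 (0.17, adjusted p = 0.0112) and with array weights (0.17, adjusted p = 0.00160). Those weights were 5.80 for FLAG-CTCFL replicate 3 against 0.42 and 0.32 for replicates 1 and 2. The weighted run thus rests mostly on 1 FLAG-CTCFL array. The brightest Nlrc5 probe set read 9.53, 9.49 and 9.63 against 9.63, 9.74 and 9.63, with groups that overlap at their edges.

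**Figure D2:**
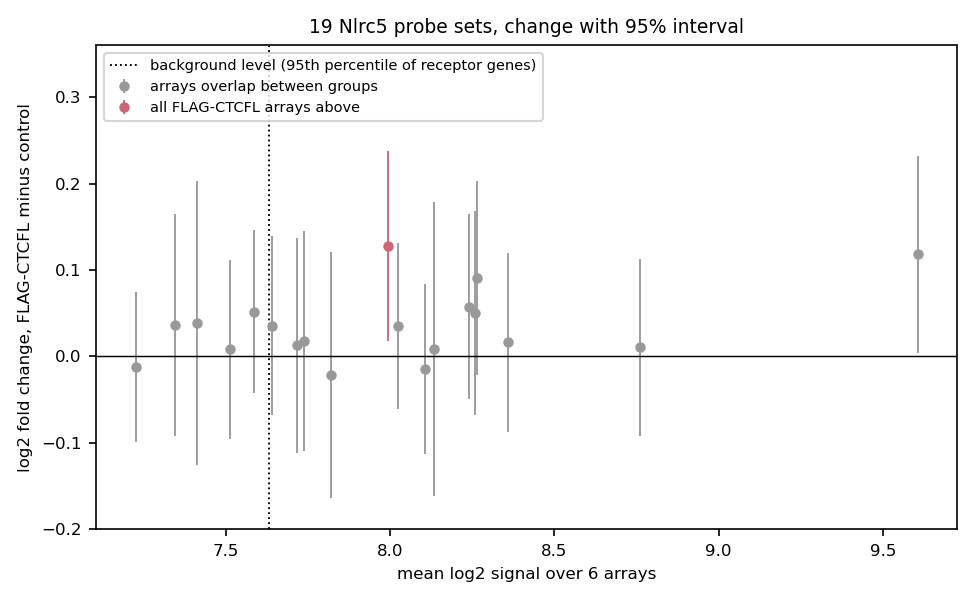
Log2 fold change of each of the 19 Nlrc5 probe sets (points, with 95% intervals from limma) against its mean log2 signal over the 6 arrays; the dotted line is the background level of 7.63. The changes lie between -0.02 and 0.13, and the coloured point is the 1 probe set whose groups do not overlap.

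Other class I heavy chain genes, classical and non-classical, gave few calls. At 1 probe set per gene, 20 of 32 listed genes were measured alone, of which 9 lay above the background level. 1 was higher and 1 lower, beside 11.7% and 17.6% over all genes (29.2% together), and the list median was -0.01 against 0.0037. H2-Q4 fell by 0.21 (adjusted p = 0.0205), and not without control replicate 1 (adjusted p = 0.0893) or FLAG-CTCFL replicate 1 (0.0589). With array weights, which rest mostly on FLAG-CTCFL replicate 3, its difference was -0.10 (adjusted p = 0.0762). H2-M2 rose by 0.16 (adjusted p = 0.0290) from a mean of 7.27, under the background level, and not when control replicate 2 (0.137) or 3 (0.0567), or FLAG-CTCFL replicate 2 (0.0667) or 3 (0.0656), was left out. H2-T10 (-0.03) and H2-M3 (0.05) did not pass. A further 5 probe sets name several of the listed chains, among them H2-Q6 with H2-Q8, and limma called none of them, with none at an unadjusted p under 0.05.

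Of class I-like genes outside the MHC, 1 of 8 measured was lower, beside 17.6% over all genes, and the others did not pass. This was Cd1d1, a lipid-presenting molecule that pairs with β2-microglobulin (-0.19, adjusted p = 0.0308). The call was lost without any single control array (adjusted p = 0.0565, 0.0987 and 0.102) and without FLAG-CTCFL replicate 2 (0.0650) or 3 (0.134).

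The chaperones and other ER factors around the loading complex mostly did not pass. Of the 15 genes measured, limma called 2 higher and 1 lower, beside 11.7% and 17.6% over all genes, and the median was 0.04. Calr (0.05), Canx (0.03) and Pdia3 (0.06), the calreticulin, calnexin and ERp57 of the folding and loading steps, had groups that overlap, and so had Tapbpl, a second peptide editor (-0.06). The calls were Uggt2 (0.34), a relative of the folding sensor Uggt1, Sec61b, a subunit of the protein channel of the ER (0.26), and Sec63, which works beside that channel (-0.18). Sec63 was lost without control replicate 2 (adjusted p = 0.0916) or 3 (0.0609), without FLAG-CTCFL replicate 3 (0.0647) and after quantile normalization (0.0516).

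Peptide supply gave the largest falls of the pathway. Of 8 genes of the immunoproteasome and the proteasome activators 2 were higher and 2 lower (11.7% and 17.6% over all genes). Psme1 and Psme2, the 2 subunits of the activator PA28 that opens the proteasome core, read 9.91, 9.84 and 9.79, and 10.24, 10.29 and 10.19, in the control arrays. In the FLAG-CTCFL arrays they read 9.13, 9.11 and 9.17, and 9.41, 9.55 and 9.51. Neither gene's groups came near each other. Psme1 fell by 0.71 (SE 0.05; adjusted p = 1.08e-06) and Psme2 by 0.75 (SE 0.05; adjusted p = 1.26e-06), and a probe set shared by Psme2 and Psme2b fell by 0.51.

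The inducible catalytic subunits did not move as a group. Psmb10 rose by 0.25 ± 0.05 (SE; adjusted p = 0.00182), while Psmb9 (0.01) and Psmb8 (0.08), which stand next to the transporter genes, did not pass, with Psmb8 under the background level. Pomp, the assembly factor of the proteasome, rose by 0.28. Of their constitutive counterparts Psmb5 fell by 0.36, and Psmb6 (0.27) and Psmb7 (0.22) rose. The last 2 calls were lost without a shared variance (adjusted p = 0.0698 and 0.0575).

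Psme1, Psme2 and Psmb5 lie on chromosome 14, where 257 of 702 measured genes were lower and 42 higher, against 17.6% and 11.7% over all genes. Among the 10 measured genes on each side of Psme1, 1 was called higher and 10 lower, at a median of -0.15. Around Psmb5 it was 10 lower of 20, at a median of -0.13. Irf9, on the list of regulators, is 1 of the falling neighbours of Psme1. The part of the chromosome in these falls was not tested. B2m is on chromosome 2, and of the 10 measured genes on each side 3 were higher and 2 lower, with log2 fold changes from -0.25 to 0.28, all smaller than its own. Around Erap1, on chromosome 13, 10 of 20 neighbours were lower and 1 higher, at a median of -0.20, and Erap1 itself was not called. Around Nlrc5, on chromosome 8, 7 of 20 were higher and 1 lower, at a median of 0.08.

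**Figure D3:**
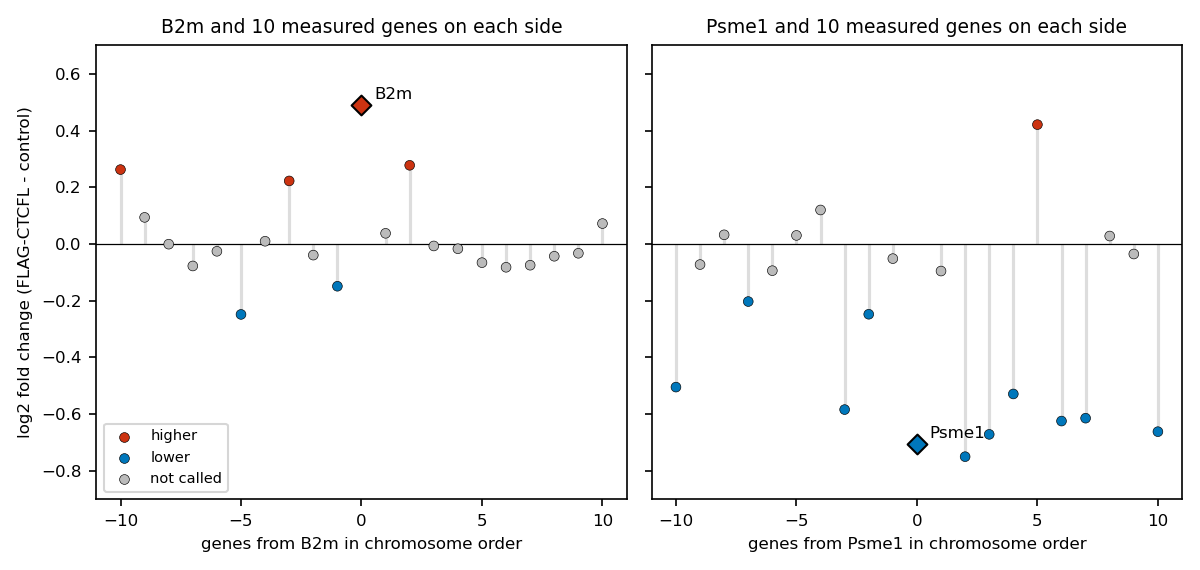
Log2 fold change of B2m and of Psme1 (diamonds) and of the 10 measured genes on each side of each in chromosome order (points), coloured by limma's call. B2m (0.49) lies above all of its neighbours, whose median is -0.02, while Psme1 (-0.71) lies among falling genes, whose median is -0.15.

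Peptidases listed as acting on class I peptides moved both ways, 2 up and 3 down among the 9 measured (over all genes 11.7% and 17.6%). Rnpep (-0.43), Lap3, a leucine aminopeptidase (-0.41), and Npepps, the puromycin-sensitive aminopeptidase (-0.29), fell. Ide (0.19) and Thop1 (0.14) rose with weak calls. Ide was lost when control replicate 1 (adjusted p = 0.124) or 3 (0.109), or FLAG-CTCFL replicate 1 (0.0951) or 3 (0.0908), was left out. Thop1 was lost without any one control array (0.0552, 0.0699 and 0.102) and without FLAG-CTCFL replicate 1 (0.0619) or 3 (0.0572).

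Regulators of class I transcription gave 2 calls upward and 3 downward among 21 measured, near the 11.7% and 17.6% over all genes, and their median was 0.03. Irf9, the DNA-binding part of the interferon-activated complex ISGF3, fell by 0.53, and its partner Stat2 by 0.16. Of the CCAAT-binding factor NF-Y, Nfya fell by 0.37 and Nfyc rose by 0.29. Ep300, a histone acetyltransferase, rose by 0.20 with overlapping groups, and its call was lost without any single control array (adjusted p = 0.138, 0.0593 and 0.103) or FLAG-CTCFL replicate 1 (0.115) or 3 (0.140). Rfx5, which binds the X box (-0.14), Irf1 (0.08) and the class II transactivator Ciita (0.05) did not pass.

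Of the receptors and kinases that carry interferon and TNF signals to these genes, 5 of 8 were lower and 1 higher, beside 17.6% and 11.7% over all genes, and the median was -0.30. The list also holds 3 inhibitors of these signals, of which the phosphatase gene Ptpn2 fell by 0.23 and Socs1 and Socs3 did not pass. Over all 11 genes of the list 6 were lower and 1 higher, and the median was -0.23, beside 0.0037 over all genes. The interferon-gamma receptor chains Ifngr2 (-0.44) and Ifngr1 (-0.31), the type I receptor chain Ifnar2 (-0.40) and the TNF receptor Tnfrsf1a (-0.36) fell. Jak2, a kinase of the interferon-gamma receptor, went the other way. It read 8.40, 8.50 and 8.42 with the control vector against 9.44, 9.39 and 9.56 with FLAG-CTCFL, far apart. The rise was 1.02 ± 0.05 (SE; 2.03-fold; limma adjusted p = 2.91e-07), the largest change on any of the 12 pathway lists.

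Of genes known to respond to interferon-gamma, 10 of 14 were measured and 5 lay above the background level. 3 were higher, beside 11.7% over all genes, and the others did not pass, with a median of 0.10. Irgm1, an immunity-related GTPase, rose by 0.46 and Cxcl10, a chemokine, by 0.18. Their control means, 7.44 and 7.57, were under the background level of 7.63, though their means over all arrays were above it. Gbp3 rose by 0.18 from under the background level, and not when control replicate 1 (adjusted p = 0.0771) or 2 (0.106), or FLAG-CTCFL replicate 1 (0.0540) or 3 (0.0936), was left out.

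Genes of transport and turnover of class I gave 4 higher and 5 lower of 19 measured, beside 11.7% and 17.6% over all genes. Susd6, an adaptor in the degradation of class I (0.42), the COPII vesicle genes Sec24d (0.32) and Sar1a (0.23), and Ap1m1, of the AP-1 clathrin adaptor (0.19), rose. Ap1m1 was lost without control replicate 1 (adjusted p = 0.0585). Marchf8, a membrane ubiquitin ligase (-0.42), Bcap31, an ER export receptor (-0.39), Wwp2, a ubiquitin ligase (-0.27), and Sec23a, of the COPII coat (-0.24), fell. Of the ligands of the natural killer receptor NKG2D only 2 of 8 were measured alone, and H60b fell by 0.56.

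**Figure D4:**
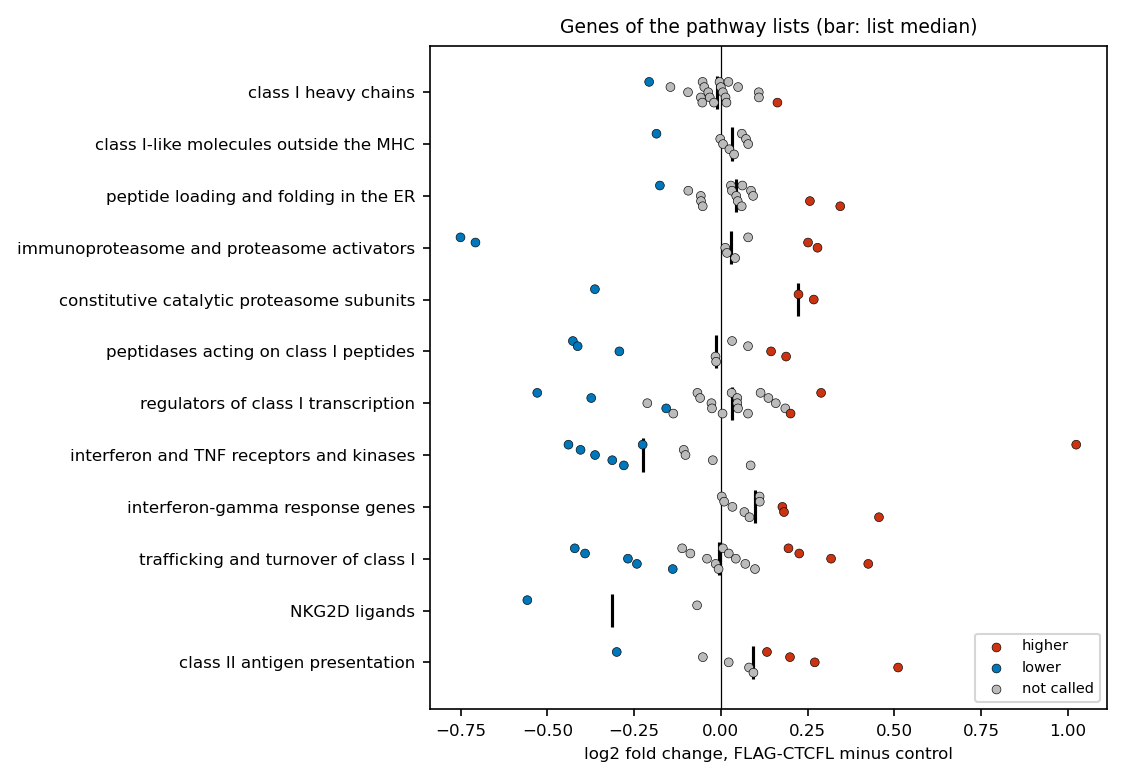
Log2 fold change of each measured gene on the 12 pathway lists (points, coloured by limma's call; black bars are list medians). Jak2 stands at 1.02 and Psme1 and Psme2 at -0.71 and -0.75, and the class I heavy chain genes lie between -0.21 and 0.16.

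Class II presentation, a task of leukocytes, was measured beside class I. Of 9 measured genes 4 were higher and 1 lower, beside 11.7% and 17.6% over all genes, and 4 lay above the background level. The 4 higher genes were among the 7 that lie in the MHC on chromosome 17, while Cd74 and Ctss lie elsewhere. H2-Ab1, the class II β chain, read 7.91, 7.92 and 8.03 with the control vector against 8.41, 8.52 and 8.46 with FLAG-CTCFL, without overlap. It rose by 0.51 ± 0.05 (SE; adjusted p = 1.97e-05). H2-DMa, a class II peptide exchanger (0.27), and H2-Eb1 (0.20) rose, and Cd74, the invariant chain, fell by 0.30. H2-Oa, whose mean over all arrays was under the background level, rose by 0.13. This call was lost without any single control array (adjusted p = 0.0679, 0.120 and 0.118) or FLAG-CTCFL replicate 2 (0.0759) or 3 (0.0635).

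Along the MHC, from Tapbp to the H2-T genes, 117 genes were measured alone, of which 22 were higher and 20 lower. Over chromosome 17 it was 116 and 163 of 940, and over all genes 11.7% and 17.6%. The median was 0.03, against 0.0062 for chromosome 17. On both sides of Tap2 10 genes each gave 6 higher of 20, and the rest were not called, with a median of 0.08. Tap1, Psmb9 and Psmb8, which lie within this stretch, were not among the higher genes.

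**Figure D5:**
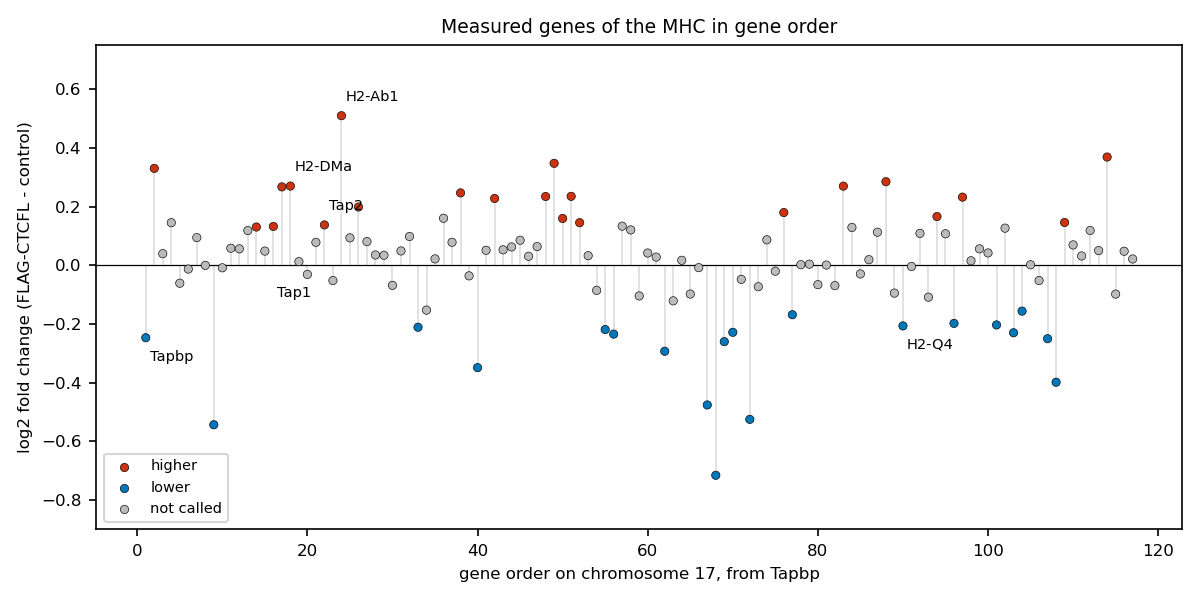
Log2 fold change of the 117 measured genes of the MHC in gene order on chromosome 17, coloured by limma's call, with members and listed genes labelled. From Rxrb to H2-Eb1 all calls are higher, and from Ehmt2 to Ly6g6e all are lower. Both stretches also hold many genes that were not called, and their ends were chosen after the values were seen. H2-Ab1 stands at 0.51 and Tapbp at -0.25.

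By Pearson's r over the 6 arrays the genes most like B2m were Haus8 (0.9991), Ddah1 (0.9987) and Foxi3 (0.9984), and those most like Tapbp were Atp9a (0.9958), S100a10 (0.9940) and Arhgef25 (0.9932). The search covered 14174 genes above the background level, and 901 of them had an r over 0.95 with B2m and 299 with Tapbp. The arrays fall into groups, so these r mainly rank genes with a like difference between groups and say nothing of shared control.

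All 10 ES cell markers lay above the background level, with means over the list of 12.43 to 12.45 in the control arrays and 12.12 to 12.25 in the FLAG-CTCFL arrays. Of these 10, 5 were lower and 1 higher, beside 17.6% and 11.7% over all genes. Of 9 measured leukocyte markers Cd3e, Cd8a, Cd68 and Laptm5 lay above the background level, and Ptprc, Cd4, Itgam, Csf1r and Lyz2 did not. Their mean over the list was 8.26 to 8.30 against 8.09 to 8.15, with Cd68 (-1.07) and Laptm5 (-0.83) lower and Cd3e (0.28) higher. The means were 7.75 to 7.78 against 7.73 to 7.82 for fibroblast, 8.25 to 8.29 against 8.05 to 8.11 for endothelial, 7.68 to 7.74 against 7.80 to 7.88 for trophoblast and 7.81 to 7.85 against 7.83 to 7.88 for endoderm markers. Named by the same rule as the other lists, the ES cell markers Fgf4 (-0.94), Nanog (-0.62), Dppa5a (-0.38), Tdgf1 (-0.37) and Sox2 (-0.21) fell and Sall4 rose (0.21). Of 9 fibroblast markers 1 was lower and 1 higher, and of 6 endothelial markers 2 were lower and 1 higher. Of 6 trophoblast markers 0 were lower and 2 higher, and 0 of 6 endoderm markers were called. For these lists and the leukocyte markers the shares over all genes are again 17.6% lower and 11.7% higher. Thy1 (-0.48), Pecam1 (-0.91) and Tek (-0.36) fell, and Gata3 (0.33) and Cdx2 (0.30) rose. Col1a1 (0.16) and Kdr (0.15) rose with calls lost when 1 array was left out: Col1a1 without any 1 control array (adjusted p = 0.152, 0.124 and 0.0576) or FLAG-CTCFL replicate 2 (0.102) or 3 (0.0748), and Kdr when control replicate 1 (0.107) or 3 (0.0861), or the FLAG-CTCFL replicate 1 (0.0681), was left out. Of the endoderm markers Gata6 (0.14, limma adjusted p = 0.053) and Sox17 (0.09) did not pass. Gata6 did pass in some alternatives, among them the fit at 1 probe set per gene (0.0407) and without FLAG-CTCFL replicate 2 (0.0181). Sox17 passed with array weights (0.0104). The part of these cell types in the changes of B2m and Tapbp was not tested. In such bulk samples fewer cells of a type and less RNA per cell cannot be told apart.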

How the data were processed

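The deposited table held 1 log2 signal per probe set and array for 34760 probe sets. The log2 scale was taken from the values, which run from 5.73 to 14.56; how the authors corrected, summarised and scaled them is not given in the sources used here. Per the labels' protocols, RNA was labelled with the GeneChip WT Terminal Labeling Kit, and per the series' design text 200 ng of total RNA was used. A scaling that holds most genes constant hides a shift common to all. The arrays had medians of 7.92 to 7.99 and correlated at 0.9982 to 0.9985 (control), 0.9965 to 0.9980 (FLAG-CTCFL) and 0.9838 to 0.9859 (across groups). Their number limits the precision.

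The platform annotation gave 1 symbol to 21640 probe sets and several to 1321, and Entrez IDs updated 21553 names through the GRCm38.p6 gene table. All 22961 were fitted with limma 3.58.1 in R 4.3.3 (moderated two-sided test from eBayes, with group alone in the model), and calls were made at a Benjamini-Hochberg adjusted p under 0.05. Fold changes are FLAG-CTCFL minus control. For lists and gene order, the single-symbol probe set with the highest mean stood for a gene (19937 genes). No filter on dim probe sets was used. The members, lists, motifs and alternatives were chosen with earlier results of these data known. Named were all members with their array values, from each list every gene past the threshold where at most 6 were (otherwise the 4 with the smallest p in each direction, and up to 2 with the smallest p where none passed), Ctcfl, and the 3 genes of highest Pearson r with B2m and Tapbp. Chaperones, regulators and list genes named without a call, Psmb8, Psmb9, Ptpn2, the ends of the 2 stretches named in the MHC and the neighbours' counts were added after their values were seen. The fit was tested on 1 simulated set, in which far fewer probe sets were changed than were called in the data. It recovered 77.6% of changes of 0.25 log2 units, 98.5% of changes of 0.5 and 100% of changes of 1. Of its calls, 7.07% were of unchanged probe sets. Plots used matplotlib 3.10.9 (Python 3.11.15).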

Additional observations from a re-analysis of the deposited data

How the results depend on the processing

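The alternatives were the replicate block, 2 other scalings, 2 filters on dim probe sets, 3 other sets of features, 3 variance models and each of the 6 arrays left out. Of 412 values for member probe sets under them, 397 kept direction and side of the threshold or stayed uncalled, 10 lost a call (9 of Tap2 and 1 of Tapbp) and 5 gained one. Over the table, 2709 probe sets were higher and 3815 lower, and 4796 were higher with array weights and 1605 without a shared variance. The counts with array weights rest mostly on FLAG-CTCFL replicate 3, whose weight was 5.80 against 0.42 and 0.32 for the other FLAG-CTCFL arrays. The balance of directions moved with the scaling, to 3797 higher and 3820 lower after quantile normalization and 1914 and 3924 with array medians subtracted. Leaving out 1 array gave 1974 to 3192 higher and 3072 to 4019 lower. The 2 members called higher became 1 with the replicate block, with array medians subtracted, with all probe sets of the table and without a shared variance, 6 with array weights, and 1 to 2 with 1 array left out. The 1 member called lower became 0 without a shared variance, where limma's usual test kept 1 with each array left out. For samples of the same replicate number the r of their deviations was 0.15, -0.19 and -0.04, and for different numbers it ran from -0.35 to 0.34. With 3 arrays per group these values cannot settle whether the numbers pair samples. With the replicate block 2543 probe sets were higher and 3644 lower. Without a shared variance Tap2, Tapbp, Psmb6, Psmb7, Sec61b, Sec23a, Sec63, Ap1m1, Cd1d1, H2-M2, H2-Q4, Ide, Ep300, Gbp3, Cd3e, Cdx2, Col1a1, Kdr and Sox2 lost their calls. Signal near the background level limits Erap1, Psmb8 and part of the Nlrc5 probe sets.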
